A study of Homo sapiens with 24 samples.

Results

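The p53 repair and metabolic target genes are DDB2, XPC, POLH, RRM2B, FDXR, SESN1, SESN2, ZMAT3, C12orf5 (the older symbol of TIGAR) and FUCA1. They were chosen by name, as the gene spots that carry 1 of these names on the array, and they make up 10 of 30982 gene names and 12 of 41000 probes. POLH and SESN1 have 2 probes each, and each of the other genes has 1. All 10 genes and 11 of the 12 probes passed the filter on dim probes, which 22766 gene names and 30198 probes passed in all. The probe that did not pass is a second probe of POLH.

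RNA of U87 MG cells, an established human glioblastoma line, was measured 24 h after irradiation with protons (proton therapy, PT) on Agilent 2-colour arrays that carry probes for the whole genome. In the configurations U87 2 Gy and U87 10 Gy, cells given PT alone were set against untreated cells. In the other configurations, named U87 Si306 + 2 Gy and, at the higher dose, U87 Si306 + 10 Gy, cells given PT and 10 µM Si306, an inhibitor of the kinase SRC, were set against cells given PT alone at the same dose. All groups are the same line, with no genetic change named in the labels, and no group received Si306 without PT.

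The 24 tables are labelled as 6 replicates for each of the 4 configurations, but their headers name 8 arrays, 2 for each configuration, scanned 3 times each. The 4 arrays of PT alone are on slide 1 and the 4 arrays with Si306 on slide 2, so that slide and Si306 cannot be told apart. Treated RNA carried Cy5 and control RNA carried Cy3 on every array, with no dye swap. A dye bias therefore enters each configuration, while a bias that is the same on both arrays cancels in a difference between 10 Gy and 2 Gy, which lies within 1 slide. Of 43376 gene spots in a scan, between 57.3% and 66.5% were well above background in Cy3 and between 63.4% and 74.7% in Cy5. The value given for an array is the log2 ratio of Cy5 to Cy3, after background correction and a loess curve within each scan, averaged over its scans. The log2 fold change of a configuration is the mean over its arrays, tested against 0 with limma over all genes, and adjusted p is after Benjamini-Hochberg. A DEG here has an adjusted p under 0.05 and at least a 2-fold change. The number of arrays limits the precision, and the p-values measure only the spread between arrays, since the labels do not show whether the arrays of a configuration hold separate cultures.

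The label and the array disagree for 2 of the 24 scans, and only the other 22 were used. The scan labelled U87 2 Gy replicate 5 is of U87 10 Gy array 2, and for 10 of 10 members its log2 ratio lay closer to that array (median distance 0.0370 on the log2 scale) than to the arrays of its label (median distance 0.345). The scan labelled U87 10 Gy replicate 2 is of U87 2 Gy array 2, and again 10 of 10 members lay closer to the array (0.0267) than to the label (0.409).

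The line was checked against marker genes. All 8 markers known for U87 cells, among which VIM was the brightest, were well above background in both dyes on all 8 arrays. Of 12 markers of other cell types, 11 are on the array. In Cy3, 1 of the 11 was well above background on every array of slide 1 and 4 of the 11 on every array of slide 2, and in Cy5 the counts were 4 and 5. PTPRC and SYP were well above background on no array, and MBP was the brightest of the 11. Their summed Cy3 signal was 1246 to 1287 on slide 1 and 3650 to 4109 on slide 2, and their summed Cy5 signal was 1374 to 1535 on slide 1 and 6941 to 16490 on slide 2. CDKN2A, which the U87 genome is known to lack, was well above background in both dyes on 8 of 8 arrays. The part of these signals in the results below was not tested, and in bulk RNA fewer cells of a type and less RNA per cell cannot be told apart.

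The protein p53 is a transcription factor that accumulates after DNA damage and binds a consensus decamer, usually in pairs, near the genes it activates. Best known are its targets that stop the cell cycle or start cell death, but it also raises genes for the repair of bulky lesions, for DNA synthesis past a lesion, for the supply of nucleotides and for the control of metabolism and oxidative stress.

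Because the members are known as targets of p53, the windows around their transcription starts were searched for the p53 consensus decamer, on both strands. For 9 of the 10 members, 14 RefSeq windows (GRCh38.p14) of 300 bases were searched, from 250 bases before to 50 after a start. RRM2B was left out of this search and is not reported here, while the windows of all genes were not restricted in that way. The decamer was found in 3 of these 14 windows, those of DDB2, FDXR and SESN1, against 2329 of 35116 windows of all genes (6.63%). A pair of decamers separated by at most 13 bases was found in 1 of the 14, that of DDB2, against 10 of all windows (0.0285%). The matches are shown with the decamers in capitals, 5′ to 3′ on the strand of the gene. For DDB2 the pair begins 5 bases after the start (chr11:47214975-47215003, plus strand), with a spacer of 1 base. For FDXR the decamer begins 11 bases before the start (chr17:74872986-74873015, minus strand), and for SESN1 it begins 49 bases before (chr6:109009018-109009047, minus strand). A match is a description of letters, and a window without one says nothing of p53 elsewhere in the gene.
DDB2: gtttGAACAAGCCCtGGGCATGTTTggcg
FDXR: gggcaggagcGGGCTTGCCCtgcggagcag
SESN1: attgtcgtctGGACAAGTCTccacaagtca

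The comparisons of PT alone with untreated cells ask which genes respond to each dose, and the difference between them asks where the dose matters. At 2 Gy, 7 of the 10 members were up regulated, POLH among them by a single array, and 1, ZMAT3, was down regulated at an adjusted p under 0.05 (limma), where 32.1% of all genes tested were higher and 25% lower, and with median centring of each scan in place of loess ZMAT3 turned to 0.016 (adjusted p = 0.813), RRM2B to 0.49 and FUCA1 to 0.52. None of the 10 was a DEG at 2 Gy, as 0.73% of all genes were, and 2 were with median centring, as 4.90% of all genes then were. At 10 Gy, 10 of 10 members were up regulated, where 31.2% of all genes were higher and 26.4% lower, and this direction held for every member with median centring. With loess only FDXR was a DEG at the 2-fold limit that the study used, among 0.971% of all genes, while 2 members were with the scanner software's log ratio (3.72% of all genes) and 4 with median centring (3.30%). The study, with its own processing, listed SESN1 among its deregulated genes of p53 signaling at 10 Gy. The median log2 fold change of the members was 0.17 at 2 Gy and 0.47 at 10 Gy, and that of all genes was 0.02 and 0.01. In the difference between 10 Gy and 2 Gy, 9 of 10 members were higher at 10 Gy and none lower, POLH with a single array at 2 Gy (10 and 0 at an unadjusted p under 0.05, limma), where 9.92% of all genes were higher and 11.2% lower. The median difference was 0.38 for the members and −0.01 for all genes. These calls depend on the processing: 6 members were higher with the scanner software's log ratio (7.96% of all genes higher, 8.73% lower), 6 with median centring (5.04% and 11.8%), and 3 (DDB2, FDXR and C12orf5, median of all members 0.25) when marks on the local background did not exclude a spot, where 1.57% of all genes were higher and 2.50% lower. In that last setting 4 members were higher at 2 Gy and 7 at 10 Gy, as 16.0% and 11.8% of all genes were. The background correction there also fitted a much wider noise in most scans, with values given at the end. With the scanner software's log ratio 4 members were higher and 2 lower (ZMAT3 and FUCA1) at 2 Gy, where 26.5% of all genes were higher and 28.4% lower. At 10 Gy 8 were higher and 0 lower, where 25.5% of all genes were higher and 28.9% lower.

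Median centring moved the median of all genes to 0.27 at 2 Gy, 0.22 at 10 Gy, 0.42 at Si306 + 2 Gy and 0.26 at Si306 + 10 Gy, from 0.02, 0.01, 0.04 and 0.03 with loess. In the difference between the doses the median moved from −0.01 to −0.02 for PT alone and from −0.01 to −0.12 with Si306. Relative to the median of all genes, 7 of 10 members lay above it at 2 Gy with loess and 9 with median centring. At 10 Gy and in the difference between the doses of PT alone, 10 of 10 members lay above the median of all genes with either. The sign at 2 Gy of RRM2B, ZMAT3 and FUCA1 therefore depends on the scaling, although ZMAT3 lay below the median of all genes with either, and the signs at 10 Gy do not within the scalings tried. The plot of log2 ratios by array shows the values behind these counts.

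**Figure D1:**
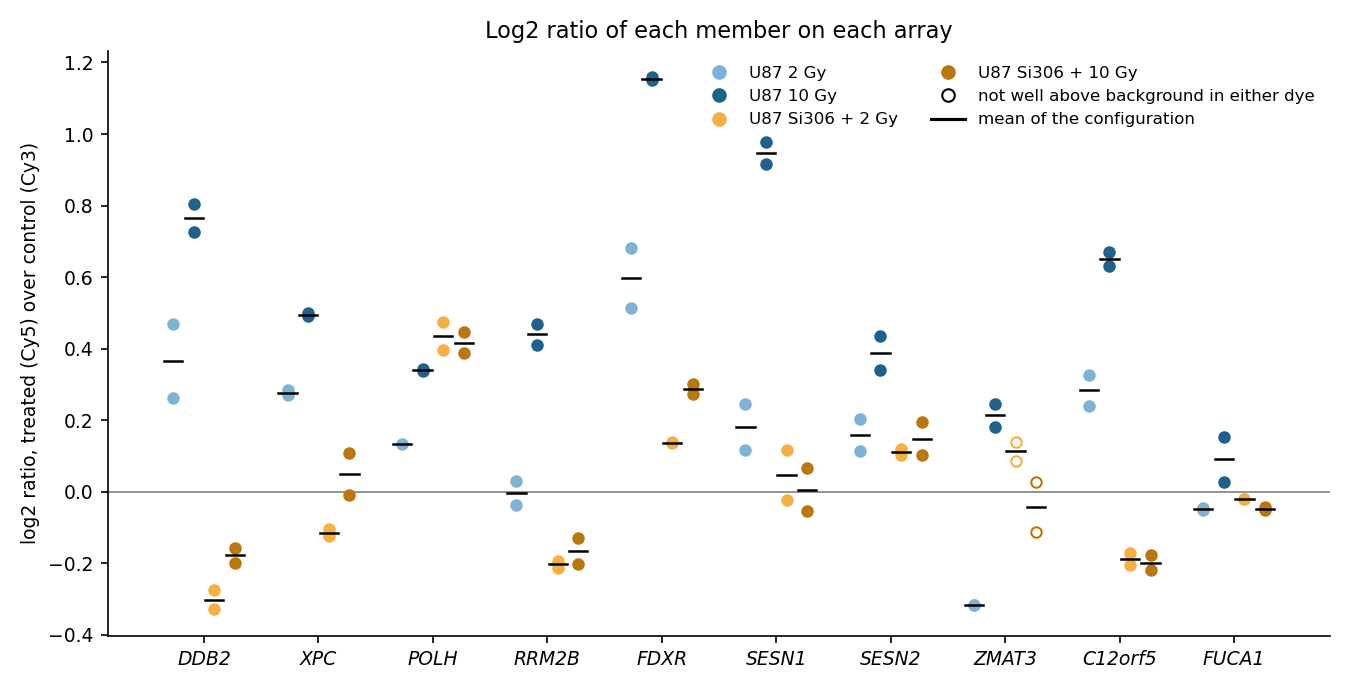
Log2 ratio of Cy5 to Cy3 of each member on each of the 8 arrays, by configuration, with the mean of each configuration. At 10 Gy of PT alone 10 of 10 members lie above 0 on both arrays, while DDB2, RRM2B and C12orf5 lie below 0 on the 4 arrays with Si306, and with median centring the means of ZMAT3, RRM2B and FUCA1 at 2 Gy, of 5 members at Si306 + 2 Gy and of 4 at Si306 + 10 Gy change sign, ZMAT3 with Si306 not counted; open circles were not well above background in either dye.

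Among the genes of lesion recognition, DDB2 encodes the subunit of the UV-damaged DNA-binding complex that finds photolesions for nucleotide excision repair (probe at chr11:47217199-47217258, hg17). The arrays of 2 Gy gave log2 ratios of 0.47 and 0.26 and those of 10 Gy gave 0.73 and 0.80. Both arrays of 10 Gy lay above both of 2 Gy, and all 4 were above 0. DDB2 rose by 0.37 (SE 0.047, adjusted p = 5.79e-05) at 2 Gy and by 0.76 (SE 0.047, adjusted p = 1.98e-07) at 10 Gy, a fold change of 1.70. The difference between the doses was 0.40 (SE 0.066, adjusted p = 0.00199), and without both arrays that have a scan of the other label it was 0.26 (adjusted p = 0.051). XPC encodes the sensor that opens the helix around bulky lesions in the same pathway (chr3:14162442-14162501, hg17). Here the log2 ratio was 0.28 and 0.27 at 2 Gy and 0.49 and 0.50 at 10 Gy, so that the doses did not overlap and the arrays of a dose lay close together. XPC rose by 0.28 (SE 0.035, adjusted p = 5.85e-05) and by 0.50 (SE 0.035, adjusted p = 6.3e-07), the first not called when marks on the local background did not exclude a spot (0.19, adjusted p = 0.151). The difference of 0.22 (SE 0.050, adjusted p = 0.011) lost its call without U87 10 Gy array 1 (0.22, adjusted p = 0.0562) or array 2 (0.21, adjusted p = 0.0648).

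POLH encodes DNA polymerase eta, which copies past ultraviolet photoproducts (chr6:43692385-43692444, hg17). On U87 2 Gy array 1 its spot was marked as an outlier in all 3 scans, so that its value at 2 Gy rests on array 2 alone, which the tests assume to vary like the other arrays, with a log2 ratio of 0.14, while both arrays of 10 Gy gave 0.34. The arrays of 10 Gy thus lay above the single array of 2 Gy. At 10 Gy POLH rose by 0.34 (SE 0.035, adjusted p = 1.98e-05), and by 0.19 without a call (adjusted p = 0.0913) when marks on the local background did not exclude a spot. The call at 2 Gy (adjusted p = 0.041) was lost without either array of 10 Gy (adjusted p = 0.0581) or either array of Si306 + 10 Gy (adjusted p = 0.0544), which changed only the shared estimate of the spread. The difference between the doses was 0.21 (SE 0.061, adjusted p = 0.0398). It was lost without U87 10 Gy array 1 (0.20, adjusted p = 0.121) or array 2 (0.21, adjusted p = 0.117) and without either array of Si306 + 10 Gy (adjusted p = 0.057). The other probe of POLH (chr6:43690307-43690366, hg17) was not well above background in either dye on any array, and no fold is given for it.

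RRM2B encodes the p53-inducible small subunit of ribonucleotide reductase, which supplies deoxynucleotides outside S phase. On the arrays of 2 Gy the log2 ratio was −0.04 and 0.03, and on those of 10 Gy it was 0.41 and 0.47. The arrays of 2 Gy lay on both sides of 0 and those of 10 Gy well above them. RRM2B did not pass the test at 2 Gy (adjusted p = 0.957) and rose by 0.44 (SE 0.035, adjusted p = 1.42e-06) at 10 Gy. The difference of 0.44 (SE 0.049, adjusted p = 0.000221) exceeded that of 98.9% of all genes tested.

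FDXR encodes ferredoxin reductase, the mitochondrial enzyme that passes electrons from NADPH to ferredoxin (chr17:70370245-70370304, hg17). Its log2 ratio was 0.68 and 0.51 on the arrays of 2 Gy, the second from 1 scan only because its spot was marked as an outlier in the other, and 1.15 and 1.16 on those of 10 Gy. These were the highest values of any member on every array of PT alone, and the doses did not overlap. FDXR rose by 0.60 (SE 0.040, adjusted p = 4.97e-07) at 2 Gy, a fold change of 1.51, and by 1.15 (SE 0.040, adjusted p = 3.01e-09) at 10 Gy, a fold change of 2.23. The difference was 0.56 (SE 0.056, adjusted p = 0.000131).

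The sestrins SESN1 and SESN2 restrain the kinase complex TORC1 and protect against oxidative stress. The brighter probe of SESN1 (chr6:109415170-109415229, hg17) gave 0.12 and 0.25 on the arrays of 2 Gy, and 0.92 and 0.98 on those of 10 Gy, as log2 ratios. The arrays of 10 Gy lay far above those of 2 Gy. At 10 Gy the value ended just under 2-fold with loess and above it with the scanner software's log ratio (1.03) and median centring (1.38). The lowest value at 10 Gy in any alternative was 0.62. SESN1 rose by 0.18 (SE 0.047, adjusted p = 0.00656) at 2 Gy, a call that was lost without U87 2 Gy array 2 (0.12, adjusted p = 0.139), and by 0.95 (SE 0.047, adjusted p = 4.44e-08) at 10 Gy, a fold change of 1.93. Its difference of 0.77 (SE 0.066, adjusted p = 5.34e-05) was the highest of the members and exceeded that of 99.9% of all genes tested. It was not the highest when marks on the local background did not exclude a spot, at 0.47 against 0.56 for the highest member. The other SESN1 probe (chr6:109416498-109416557, hg17) gave 0.10 and 0.06 at 2 Gy and 0.61 and 0.59 at 10 Gy. It was up regulated at 10 Gy (0.60, adjusted p = 3.38e-07 over probes) and in the difference (0.52, adjusted p = 2e-04), but not at 2 Gy (0.08, adjusted p = 0.115), where the probes disagree.

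SESN2 (chr1:28292336-28292395, hg17) gave log2 ratios of 0.11 and 0.20 on the arrays of the lower dose, and 0.44 and 0.34 on those of the higher. All 4 arrays were above 0 and the doses did not overlap. SESN2 rose by 0.16 (SE 0.039, adjusted p = 0.0048) at 2 Gy, lost without U87 2 Gy array 2 (0.11, adjusted p = 0.0953), and by 0.39 (SE 0.039, adjusted p = 8.01e-06) at 10 Gy. The difference of 0.23 (SE 0.055, adjusted p = 0.0136) was lost without U87 2 Gy array 1 (0.18, adjusted p = 0.0789) or U87 10 Gy array 1 (0.18, adjusted p = 0.106).

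C12orf5 encodes TIGAR, a phosphatase that lowers fructose 2,6-bisphosphate and so slows glycolysis in favour of the pentose phosphate pathway (chr12:4332303-4332362, hg17). The log2 ratio of C12orf5 was 0.24 and 0.33 at 2 Gy and 0.67 and 0.63 at 10 Gy, with all arrays above 0 and no overlap of the doses. C12orf5 rose by 0.28 (SE 0.035, adjusted p = 4.14e-05) and by 0.65 (SE 0.035, adjusted p = 7.41e-08), a fold change of 1.57 at 10 Gy. The difference was 0.37 (SE 0.049, adjusted p = 0.000613).

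FUCA1 encodes the lysosomal fucosidase that removes fucose from glycoproteins (chr1:23917156-23917215, hg17). Its log2 ratio was −0.05 on both arrays of 2 Gy and 0.15 and 0.03 at 10 Gy. With loess the values stayed near 0, and the arrays of 10 Gy lay on the other side of it. With median centring FUCA1 was at 0.52 at 2 Gy and 0.56 at 10 Gy, where the medians of all genes were 0.27 and 0.22. FUCA1 did not pass at 2 Gy (adjusted p = 0.271). It passed narrowly at 10 Gy (0.09, SE 0.036, adjusted p = 0.049), and no longer without U87 10 Gy array 1 (0.03, adjusted p = 0.615), either array of 2 Gy (adjusted p = 0.0523), either of Si306 + 2 Gy (adjusted p = 0.0629) or either of Si306 + 10 Gy (adjusted p = 0.0689). Without U87 10 Gy array 2 its value was 0.15 (adjusted p = 0.0173). The difference between the doses was 0.14 (SE 0.050, adjusted p = 0.0776), and 0.20 (adjusted p = 0.0409) without U87 10 Gy array 2.

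ZMAT3 encodes a zinc finger protein that binds RNA (chr3:180224863-180224922, hg17). Its log2 ratio was −0.32 on both arrays of 2 Gy and 0.24 and 0.18 on those of 10 Gy, the last from 1 scan only because its spot was marked as an outlier in the other. Both arrays of 2 Gy lay below 0 and both of 10 Gy above it, as those of FUCA1 did nearer to 0. It fell by 0.32 (SE 0.039, adjusted p = 4.48e-05) at 2 Gy and rose by 0.21 (SE 0.039, adjusted p = 0.000736) at 10 Gy. The difference was 0.53 (SE 0.055, adjusted p = 0.000151), while with median centring its value at 2 Gy was 0.016, below the median of all genes in that setting. The rise at 10 Gy was called in 15 of 20 alternatives, in which it ranged from 0.10 to 0.56. The fall was called in 18 of 20, and not when marks on the local background did not exclude a spot (−0.12, adjusted p = 0.151).

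Over the alternatives, the difference between the doses was called in 20 of 20 for FDXR, 21 of 21 for C12orf5, 20 of 21 each for DDB2, RRM2B and SESN1, 17 of 20 for ZMAT3, 15 of 21 for SESN2, 14 of 21 for XPC, 7 of 18 for POLH and 5 of 21 for FUCA1. It ranged from 0.26 to 0.43 for C12orf5, from 0.24 to 0.48 for RRM2B, from 0.47 to 0.84 for SESN1 and from 0.25 to 0.72 for ZMAT3. For FDXR it ranged from 0.31 to 0.64, for DDB2 from 0.23 to 0.50 and for SESN2 from 0.12 to 0.32. The ranges were 0.12 to 0.23 for XPC, 0.093 to 0.27 for POLH and 0.041 to 0.20 for FUCA1. Against untreated cells, the setting in which marks on the local background did not exclude a spot lost the calls of XPC, POLH, SESN1 and ZMAT3 at 2 Gy and of POLH, ZMAT3 and FUCA1 at 10 Gy. The scanner software's log ratio lost those of POLH, SESN1 and SESN2 at 2 Gy and of ZMAT3 and FUCA1 at 10 Gy, and called FUCA1 lower at 2 Gy (−0.14, adjusted p = 0.0153).

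With loess, FDXR stood first in the log2 fold changes at 10 Gy, followed by SESN1, DDB2, C12orf5, XPC, RRM2B, SESN2, POLH, ZMAT3 and FUCA1. Only the neighbours RRM2B and SESN2, and SESN2 and POLH, had arrays that overlapped. With loess the order at 2 Gy was FDXR, DDB2, C12orf5, XPC, SESN1, SESN2, POLH, RRM2B, FUCA1 and ZMAT3. Arrays overlapped between DDB2, C12orf5 and XPC and between SESN1, SESN2 and POLH. At 2 Gy with median centring, FUCA1 (0.52) and RRM2B (0.49) lay above POLH, whose highest value there in any alternative was 0.41. The SD between arrays of a configuration ran from 0.039 for POLH to 0.082 for SESN1, and the SD between scans of an array from 0.023 for FUCA1 to 0.057 for SESN2. Set among all genes, FDXR at 10 Gy exceeded 99.3% of genes and FUCA1 66.7%, and at 2 Gy the members ran from 6.25% for ZMAT3 to 97.4% for FDXR.

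**Figure D2:**
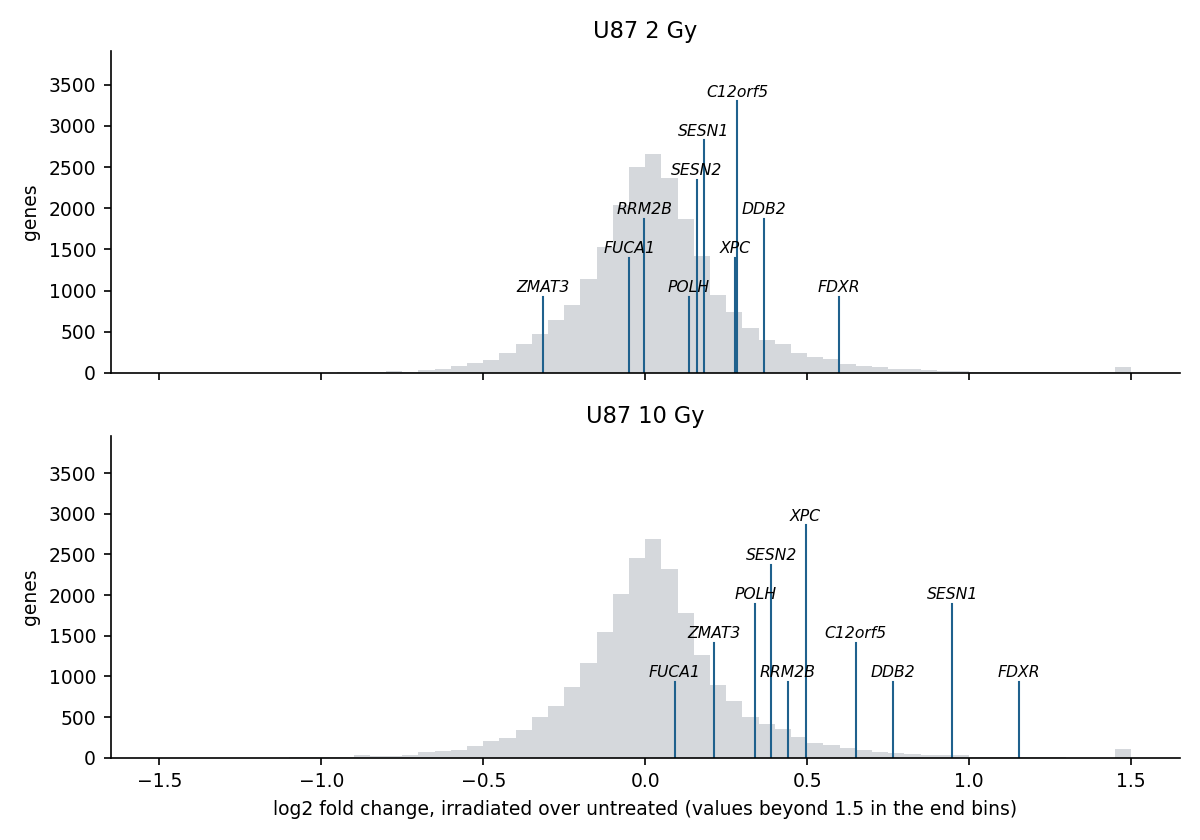
Histogram of the log2 fold changes of all genes tested at 2 Gy and at 10 Gy of PT alone, with a line for each member; values beyond 1.5 are in the end bins. The members spread over both sides of 0 at 2 Gy, where ZMAT3, RRM2B and FUCA1 turn positive with median centring, and all lie above 0 at 10 Gy.

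The comparisons with Si306 ask what the inhibitor adds to PT at the same dose. ZMAT3 was not well above background in either dye on any array of slide 2, and no fold or direction is given for it there, so that 9 members remain. At Si306 + 2 Gy, 3 of 9 members were higher (POLH, FDXR and SESN2) and 4 lower (DDB2, XPC, RRM2B and C12orf5), where 38.9% of all genes were higher and 28.2% lower, but with median centring DDB2 (0.65), XPC (0.15), RRM2B (0.27), C12orf5 (0.56) and FUCA1 (0.80) turned positive. In that setting 8 of 9 members were higher and 0 lower, where 63.5% of all genes were higher and 25.5% lower. With loess none of the 9 was a DEG, as 0.752% of all genes were, nor with the scanner software's log ratio (5.73%), and 2 were with median centring, as 16.8% of all genes then were. At Si306 + 10 Gy, 3 of 9 were higher (POLH, FDXR and SESN2) and 3 lower (DDB2, RRM2B and C12orf5), where 35.2% of all genes were higher and 27.2% lower, and with median centring DDB2 (0.46), RRM2B (0.16), C12orf5 (0.31) and FUCA1 (0.51) turned positive. In that setting 9 of 9 were higher and 0 lower, where 59.6% of all genes were higher and 21.2% lower. Again none was a DEG with loess, as 0.373% of all genes were, nor with the scanner software's log ratio (4.02%) or median centring (5.01%). When marks on the local background did not exclude a spot, DDB2 at Si306 + 2 Gy (lower) and FDXR at Si306 + 10 Gy (higher) were the only calls among the 9, where 27.9% and 19.7% of all genes were called. With loess the median of the 9 was −0.02 and 0.0057, and that of all genes 0.04 and 0.03. Relative to the shifted median of all genes, 5 of 9 members lay above it at either dose with median centring, against 4 at either dose with loess.

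Of the lower members, DDB2 had log2 ratios of −0.33 and −0.28 at Si306 + 2 Gy and −0.16 and −0.20 at Si306 + 10 Gy. All 4 arrays lay below 0. DDB2 fell by 0.30 (SE 0.047, adjusted p = 0.000185) and by 0.18 (SE 0.047, adjusted p = 0.00665), the latter lost without U87 Si306 + 10 Gy array 2 (−0.16, adjusted p = 0.0892). With the scanner software's log ratio DDB2 was not called at Si306 + 10 Gy. RRM2B gave −0.19 and −0.21, then −0.13 and −0.20, again all below 0. RRM2B fell by 0.20 (SE 0.035, adjusted p = 0.000409) and by 0.17 (SE 0.035, adjusted p = 0.00182), the latter lost without U87 Si306 + 10 Gy array 2 (−0.13, adjusted p = 0.0622). C12orf5 gave −0.20 and −0.17, then −0.22 and −0.18. It lay below 0 on all 4 arrays and fell by 0.19 (SE 0.035, adjusted p = 0.000654) and by 0.20 (SE 0.035, adjusted p = 0.000506). With median centring these 3 members were above 0 at both doses, and relative to the median of all genes in that setting (0.42 and 0.26) DDB2 and C12orf5 lay above it and RRM2B below. The same PT RNA type is Cy5 on slide 1 and Cy3 on slide 2, so that these values stand beside those of PT alone and no net change against untreated cells is given.

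Of the higher members, POLH had log2 ratios of 0.47 and 0.40 at Si306 + 2 Gy and 0.45 and 0.39 at Si306 + 10 Gy. With loess they were the highest of the members on all 4 arrays of slide 2, but with median centring FDXR (1.10 and 0.93) lay above POLH (1.02 and 0.82). When marks on the local background did not exclude a spot, POLH was at 0.21 (adjusted p = 0.0665) and 0.13 (adjusted p = 0.336), and at Si306 + 10 Gy FDXR lay above it at 0.28 (adjusted p = 0.00508). POLH was up regulated by 0.43 (SE 0.035, adjusted p = 2.91e-06) and by 0.42 (SE 0.035, adjusted p = 4.78e-06), fold changes of 1.35 and 1.33, and by 0.34 at 10 Gy of PT alone. FDXR gave 0.14 on both arrays of Si306 + 2 Gy and 0.27 and 0.30 at Si306 + 10 Gy, without overlap. The higher value of 0.29 (SE 0.040, adjusted p = 9.43e-05) passed at Si306 + 10 Gy, and that of 0.14 (adjusted p = 0.0106) was lost without array 1 (adjusted p = 0.0752) or array 2 (adjusted p = 0.0767) of Si306 + 2 Gy.

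SESN2 gave 0.10 and 0.12 at Si306 + 2 Gy and 0.19 and 0.10 at Si306 + 10 Gy, so that the doses overlapped. It was higher by 0.11 (adjusted p = 0.0255) and by 0.15 (adjusted p = 0.0064). The first was lost without array 1 (0.12, adjusted p = 0.108) or array 2 (0.10, adjusted p = 0.152) of Si306 + 2 Gy, and the second without array 1 of Si306 + 10 Gy (0.10, adjusted p = 0.149). Both calls were also lost with the scanner software's log ratio (adjusted p = 0.227 and 0.0675) and when marks on the local background did not exclude a spot (0.019 and 0.011, adjusted p = 0.884 and 1). With median centring SESN2 was at 0.0072 (adjusted p = 0.912) and 0.14 (adjusted p = 0.0345), below the median of all genes at both doses. XPC gave −0.10 and −0.12 at Si306 + 2 Gy and −0.01 and 0.11 at Si306 + 10 Gy. It was below 0 on both arrays of the lower dose only. The value of −0.11 (SE 0.035, adjusted p = 0.0146) lost its call without array 1 or array 2 of Si306 + 2 Gy. At Si306 + 10 Gy, 0.05 did not pass with loess (adjusted p = 0.247). With median centring XPC was called higher there (0.25, adjusted p = 0.000206, limma), below the median of all genes in that setting (0.26).

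With loess SESN1 gave 0.12 and −0.02 at Si306 + 2 Gy and −0.05 and 0.07 at Si306 + 10 Gy, on both sides of 0 at each dose, and passed in neither (adjusted p = 0.392 and 0.923). With median centring it was called higher in both (0.38 and 0.24, adjusted p = 3.29e-07 and 0.00056, limma). Both values lay below the medians of all genes in that setting (0.42 and 0.26). Its other probe gave −0.09 and −0.20 at Si306 + 2 Gy (−0.14, adjusted p = 0.00823 over probes), where the probes disagree, but its control RNA was well above background on 1 of 2 arrays in each configuration with Si306, so that no direction is drawn. FUCA1 gave −0.02 on both arrays of Si306 + 2 Gy and −0.04 and −0.05 at Si306 + 10 Gy, and passed in neither (adjusted p = 0.63 and 0.271).

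In the difference between Si306 + 10 Gy and Si306 + 2 Gy, 1 of 9 members, XPC, was higher and none lower (2 and 0 at an unadjusted p under 0.05, limma), where 10.2% of all genes were higher and 12.6% lower. With median centring 3 of 9 were lower and none higher (4 and 0 at an unadjusted p under 0.05), where 39.1% of all genes were lower and 16.0% higher. The difference of XPC was 0.16 (SE 0.050, adjusted p = 0.0387). It was lost without either array of Si306 + 2 Gy (0.17 and 0.15, adjusted p = 0.11 and 0.137), array 2 of Si306 + 10 Gy (0.10, adjusted p = 0.278) or either array of 10 Gy of PT alone (adjusted p = 0.0573). FDXR had a difference of 0.15 (SE 0.056, adjusted p = 0.0787), which passed without either array of 2 Gy of PT alone (adjusted p = 0.0289) and turned to −0.16 with median centring (adjusted p = 0.0951). The other members measured on slide 2 lay between −0.04 and 0.12.

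**Figure D3:**
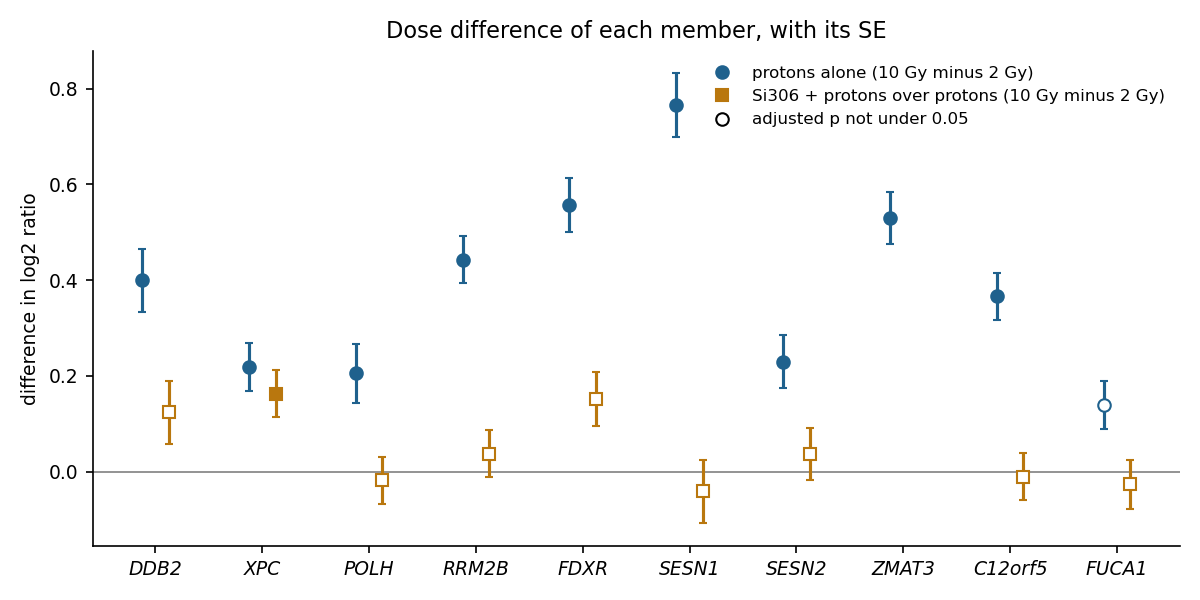
Difference in log2 ratio between 10 Gy and 2 Gy for each member, for PT alone and for Si306 with PT, with SE bars and open symbols where the adjusted p is not under 0.05; ZMAT3 has no value with Si306 because it was not well above background there. All 10 differences lie above 0 for PT alone, from 0.14 for FUCA1 to 0.77 for SESN1 (0.041 to 0.73 with median centring), while those with Si306 lie between −0.04 and 0.16 and fall to a median of −0.16 with median centring, both without ZMAT3.

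Over the 8 arrays, the log2 ratio of most members followed the median of the members, with Pearson's r of 0.983 for RRM2B, 0.977 for SESN1, 0.970 for C12orf5, 0.953 for FDXR, 0.923 for DDB2, 0.921 for XPC, 0.895 for SESN2 and 0.743 for FUCA1. POLH did not follow it (−0.452, over the 7 arrays on which it has a value), and no r is given for ZMAT3, which was measured above background on slide 1 only. The median includes the values of ZMAT3 on all arrays. Each member is part of that median, and the arrays share slides and control RNA, so that these values are descriptions. Among 2876 genes with an SD over the arrays of at least 0.3, outside the members and lists, the profiles most like the members' median were those of HSPA14 and STOM (r = 0.981 each), a transcript named only by a sequence identifier (0.981), CENPK (0.980) and SNRPE (0.979). HSPA14 had log2 fold changes of 0.13, 0.53, −0.22 and −0.21 in the 4 configurations, in the order 2 Gy, 10 Gy, Si306 + 2 Gy and Si306 + 10 Gy. In the same order STOM had 0.23, 0.86, −0.07 and −0.14.

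**Figure D4:**
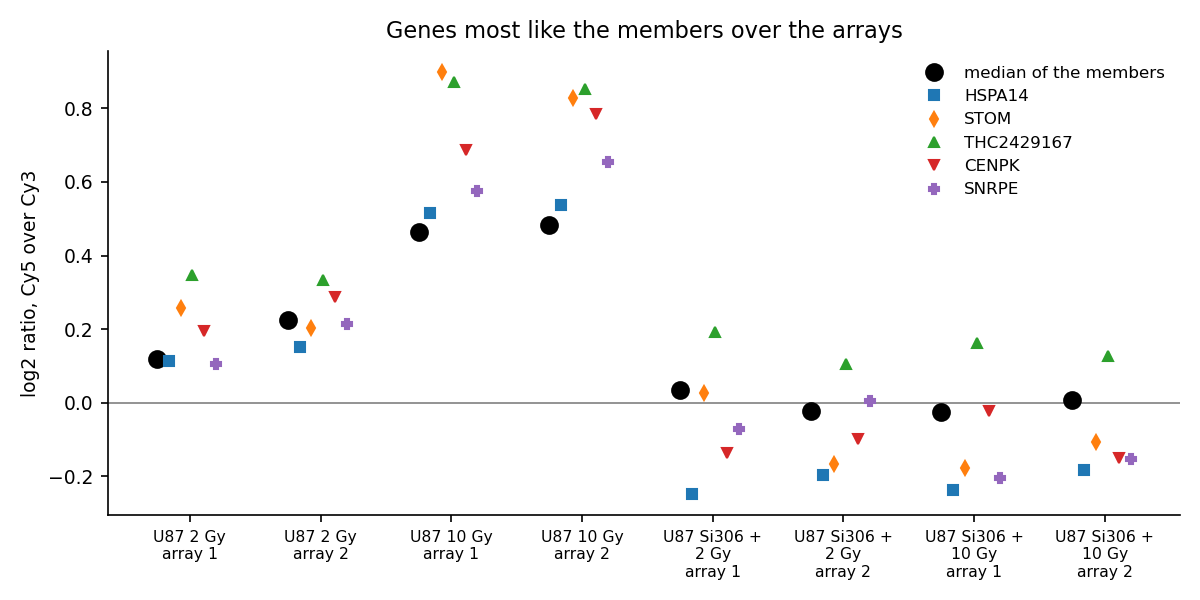
Log2 ratio on each of the 8 arrays for the median of the members and for the 5 genes whose profiles were most like it. The members' median is 0.12 and 0.22 at 2 Gy, 0.46 and 0.48 at 10 Gy and between −0.03 and 0.03 on the arrays with Si306.

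For the lists below, 32.1% of all genes were higher and 25% lower at 2 Gy, 31.2% and 26.4% at 10 Gy, and 9.92% and 11.2% in the difference. Among other p53 targets, 11 of 15 genes of arrest and feedback were higher and 4 lower at 2 Gy, and 13 were higher and 1 lower at 10 Gy, with 14 higher and 1 lower at either dose with median centring, where 59.6% and 57.6% of all genes were higher and 25.4% and 23.8% lower. Their median log2 fold change was 0.31 and 0.70, against 0.02 and 0.01 for all genes, and 10 were higher and 2 lower in the difference between the doses (median 0.38). TOB1, which slows proliferation (0.71, adjusted p = 1.28e-07), and PHLDA3, which restrains AKT (0.58, adjusted p = 1.23e-06, a probe of 60% GC), led at 2 Gy. BTG2 (1.64, adjusted p = 5.42e-10) and GDF15, a secreted stress factor (1.27, adjusted p = 7.58e-10), led at 10 Gy. Of 13 death targets, 7 were higher and 4 lower at 2 Gy and 11 higher and 1 lower at 10 Gy (10 and 2, then 11 and 1, with median centring), 9 were higher and none lower in the difference (11 and 1 at an unadjusted p under 0.05), and medians were 0.13, 0.37 and 0.26. BBC3, a BH3-only activator of cell death, was 2.28 and 2.79 by a probe of 85% GC, while its other probes gave 0.26 to 0.32 at 2 Gy and 0.34 to 1.21 at 10 Gy.

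In the pathways around the members, the medians at 2 Gy, at 10 Gy and in the difference were 0.08, 0.14 and 0.05 for 22 other genes of nucleotide excision repair, the pathway of DDB2 and XPC. Of the 22, 10 were higher and 3 lower at 2 Gy, 12 and 3 at 10 Gy, and 2 and 1 in the difference, and 20 were higher at either dose with median centring. For 9 genes of translesion synthesis, the pathway of POLH, the medians were 0.15, 0.29 and 0.15, with 7 higher and 1 lower, 6 and 1, and 4 and 2, and 9 higher at either dose with median centring. PCNA, the sliding clamp, led them at 0.81 (adjusted p = 9.26e-09) and 1.54 (adjusted p = 3.38e-11). For 11 genes of nucleotide supply around RRM2B the medians were −0.13, 0.01 and 0.18, with 3 higher and 6 lower, 3 and 2, and 7 and 0 (also 7 and 0 at an unadjusted p under 0.05), but 9 higher and 1 lower at either dose with median centring. RRM2, the S-phase counterpart of RRM2B, fell by 0.55 at 2 Gy, but its other probe gave 0.28 and median centring 0.05 (adjusted p = 0.454).

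For 23 genes around the sestrins (GATOR and TORC1) the medians at 2 Gy, at 10 Gy and in the difference were 0.07, 0.03 and −0.0033, with 9 higher and 7 lower, 10 and 8, and 1 and 2. For 15 genes of sugar phosphates and the pentose phosphate pathway around C12orf5 they were −0.02, 0.07 and 0.05, with 5 higher and 3 lower at both doses and 0 and 1 in the difference (2 and 2 at an unadjusted p under 0.05). PFKL, a phosphofructokinase of glycolysis, was higher by 0.73 and 0.85 (its other probe 1.03 and 1.29). For 15 lysosomal glycosidases beside FUCA1 they were 0.11, 0.01 and −0.0046, with 8 higher and 3 lower, 3 and 4, and 0 and 3 (2 and 3 at an unadjusted p under 0.05). For 11 genes of mitochondrial ferredoxin and iron-sulfur clusters around FDXR they were −0.21, −0.13 and −0.02, with 3 higher and 6 lower, 2 and 6, and 1 and 1. With median centring the genes higher at 2 Gy and 10 Gy numbered 20 and 18 of 23, 12 and 11 of 15, 15 and 15 of 15, and 8 and 8 of 11 in these 4 lists, beside the shares of all genes given above for that setting. The 8 U87 markers had 2 higher and 5 lower at both doses (8 and 7 higher with median centring). Of 8 tested markers of other cells, 3 were higher at 2 Gy and none at 10 Gy, where none had an unadjusted p under 0.05 (1 and 0 higher, 6 and 6 lower with median centring). CDKN2A passed at neither dose, and was lower at 2 Gy at an unadjusted p under 0.05.

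**Figure D5:**
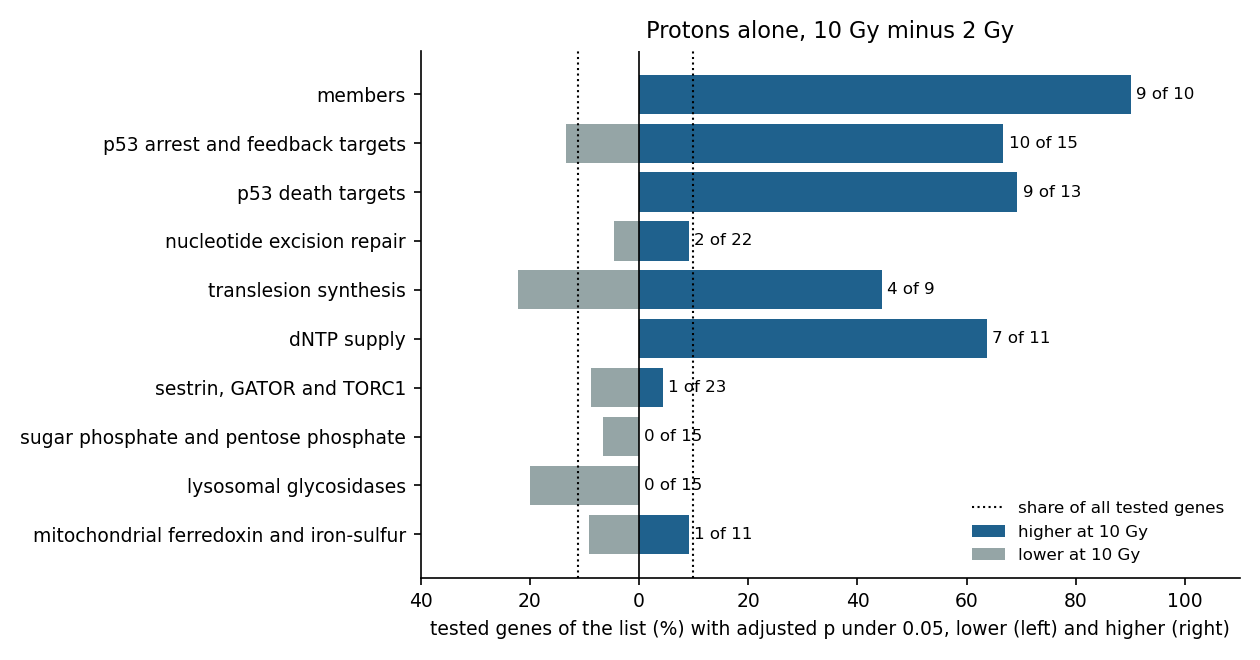
Percentage of the tested genes of the members and of 9 lists that were higher (right) or lower (left) at 10 Gy than at 2 Gy of PT alone at an adjusted p under 0.05, with loess, the number higher beside each bar and dotted lines for all genes. The members (9 of 10), death targets (9 of 13), arrest targets (10 of 15) and nucleotide supply (7 of 11) have the highest shares, while with median centring the members fall to 6, death targets to 7, arrest targets to 9, nucleotide supply to 1 of 11 and translesion synthesis from 4 to 1 of 9.

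With Si306 the lists showed both directions, and median centring turned most of their lower genes, so that counts are given for loess with no direction drawn. Of all genes, 38.9% were higher and 28.2% lower at Si306 + 2 Gy, and 35.2% and 27.2% at Si306 + 10 Gy. At Si306 + 2 Gy and then at Si306 + 10 Gy, higher and lower genes numbered 8 and 5, then 7 and 6, of the arrest targets, and 5 and 3, then 8 and 3, of the death targets. They numbered 5 and 8, then 6 and 6, in excision repair, 3 and 2, then 4 and 3, in translesion synthesis, and 2 and 6, then 2 and 7, in nucleotide supply. In the sestrin list they were 11 and 6, then 11 and 7, in the sugar phosphate list 5 and 4, then 5 and 5, in the glycosidases 6 and 4, then 5 and 4, and in the ferredoxin list 4 and 3, then 5 and 4. PCNA was at −0.53 (adjusted p = 1.3e-07) and −0.72 (adjusted p = 2.95e-08), and at 0.59 and 0.02 with median centring. UBE2A, a ubiquitin-conjugating enzyme that acts on PCNA, was higher by 0.60 (adjusted p = 9.15e-08) and 0.78 (adjusted p = 2.67e-08). DDB1, the partner of DDB2, was higher by 0.49 (adjusted p = 2.52e-07) and 0.41 (adjusted p = 1.03e-06) while DDB2 fell with loess. The U87 markers had 1 higher and 4 lower, then 2 and 3, and the tested markers of other cells 6 and 0, then 4 and 1. CDKN2A was higher by 0.82 (adjusted p = 5.77e-08) and 0.73 (adjusted p = 1.63e-07), and its part in the results was not tested.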

How the data were processed

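The authors deposited 24 tables of the Agilent Feature Extraction software (9.5.3.1), each of 45015 spots, with the mean signal intensity and the median local background of Cy3 and Cy5 on a linear scale and with a log10 ratio that was background-corrected and dye-normalized by the software. Their series matrix was found to be that log10 ratio, rounded (largest difference 0.00500, column medians 0), of Cy5 over Cy3. The log2 ratio of the intensities was used here. The members and lists were chosen with earlier results of these data known.

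Before normexp (offset 50), all control spots were dropped, and with them any spot that carried 1 of 8 outlier marks, between 2.98% and 5.73% of a scan. At most 0.0115% of spots were saturated, and no member was. Loess followed within each scan, then averaging over the spots of a probe and the scans of an array. The design had foreseen 24 samples, but repeat scans hold the same hybridization. A probe was kept if well above background in either dye on more than 0.5 of an array's scans, on both arrays of at least 1 configuration. Genes are represented by their brightest probe. Of the 12 member probes, 11 were matched to a RefSeq gene by accession, and so were all 10 members. Gene names are those of the array where no current name is given.

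The model was fitted with limma 3.58.1 (R 4.3.3, with data.table version 1.17.8 and statmod 1.5.0) and had 4 residual and 6.49 prior degrees of freedom and a prior SD of 0.0538. Named are all members with every probe, and from outside the 5 genes most correlated with their median. From each list and configuration, up to 2 genes with the largest absolute change among those called with 1 sign on both arrays could be named, of which the text gives a part. Some genes of the lists, and 1 list, are not reported here. TP53AIP1, PTPRC, SOX10 and SYP did not pass the filter, and CASTOR1, FDX2 and RBFOX3 are not on the array. The alternatives changed the ratio used, the background correction, the scaling, the filter, the choice of probe, the unit of replication, single arrays and the GC correction.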

Additional observations from a re-analysis of the deposited data

Results flagged for a closer look

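The test of the difference between 10 Gy and 2 Gy of PT alone was passed by 9 members, and apart from POLH their effects against untreated cells differed between the doses in this setting. The differences in log2 ratio were 0.40 for DDB2, 0.22 for XPC, 0.21 for POLH, 0.44 for RRM2B, 0.56 for FDXR, 0.77 for SESN1, 0.23 for SESN2, 0.53 for ZMAT3 and 0.37 for C12orf5. For POLH the 2 Gy value comes from 1 array, and no difference is drawn. The calls of XPC, POLH and SESN2 were lost when single arrays were left out, that of DDB2 without both arrays that have a scan of the other label (0.26, adjusted p = 0.051), and that of ZMAT3 with the scanner software's log ratio (0.72, adjusted p = 0.0742). With that ratio XPC, POLH and SESN2 were not called either (adjusted p = 0.0847, 0.0742 and 0.396), nor with median centring (adjusted p = 0.172, 0.17 and 0.251). When marks on the local background did not exclude a spot, XPC, POLH, RRM2B (0.24, adjusted p = 0.177), SESN1 (0.47, adjusted p = 0.234), SESN2 and ZMAT3 (0.25, adjusted p = 0.116) were not called, and DDB2, FDXR and C12orf5 were.

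The test of the difference between Si306 + 10 Gy and Si306 + 2 Gy was passed by XPC alone among the members, with 0.16, and this call too was lost without single arrays.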

How the results depend on the processing

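Main counts of genes that passed at 2 Gy, 10 Gy, Si306 + 2 Gy, Si306 + 10 Gy, in the dose difference of PT alone and in that with Si306 were 12994, 13120, 15257, 14211, 4806 and 5205, and of the 10 members 8, 10, 8, 6, 9 and 1. Those genes were 57.1%, 57.6%, 67.1%, 62.4%, 21.1% and 22.9% of all tested. All counts of members with Si306 given here include ZMAT3, which was not well above background there. For single members, 437 values kept their side of the threshold when 1 array was left out, 37 lost and 4 gained a call. Of the 437, 12 changed sign, all called in neither setting. In the other alternatives 655 kept their side, of which 27 changed sign with no call in either setting, 73 lost and 19 gained a call, and 13 reversed, with a call in at least 1 setting. Where an alternative moved a result, the cause was not tested, except that the strict filter tested fewer genes.

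Every such reversal came from median centring: at 2 Gy RRM2B 0.49, ZMAT3 0.016 and FUCA1 0.52; at Si306 + 2 Gy DDB2 0.65, XPC 0.15, RRM2B 0.27, ZMAT3 −0.45 (not well above background there, so not read), C12orf5 0.56 and FUCA1 0.80; at Si306 + 10 Gy DDB2 0.46, RRM2B 0.16, C12orf5 0.31 and FUCA1 0.51. It gave 10 members at Si306 + 10 Gy, where 80.8% of all genes passed, and 12532 genes (55.1%) and 3 members in the Si306 dose difference. Of all genes called, 70.1%, 70.7%, 71.4%, 73.8%, 29.9% and 29.0% were higher with it, against 56.2%, 54.2%, 58.0%, 56.4%, 46.9% and 44.7% with loess.

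In the Si306 dose difference the members numbered 2 with the scanner log ratio, 2 with the series matrix, 2 without background correction, 0 without a filter and 3 with the array as a random block. In the same order 18.5%, 18.4%, 26.4%, 12.9% and 31.8% of all genes passed there. The count of genes in that difference was 10312 with 24 scans as separate samples and 10228 with the replicate number as a block. By deviations from the configuration means, scans of the same replicate number had a median r of 0.000400 over 36 pairs (−0.235 to 0.230). Other pairs had −0.00458 (−0.771 to 0.456). As the numbers of a configuration count repeat scans of 2 arrays, these values cannot decide whether the samples are paired. With a filter for both dyes above background on every array, 7 members were tested. At 2 Gy 5 of them passed, as 70.7% of all genes did, and at Si306 + 2 Gy 5 passed, as 9948 genes (77.0%) did. The filter left out FDXR, POLH and ZMAT3, although FDXR and the brighter probe of POLH were well above background in both dyes in every configuration. It counts a spot marked as an outlier as failing, and asks for more than 0.5 of the scans of every array. FDXR was free of such marks in 1 of 2 scans of U87 2 Gy array 2, and POLH in 0 of 3 scans of U87 2 Gy array 1. Without both arrays that have a scan of the other label, 5 of 9 tested members passed at 2 Gy and 2086 genes in the dose difference of PT alone. These counts belong to different comparisons and are not set against each other. A single array then remains at each dose of PT alone and is assumed to vary like the other groups, so no enrichment of members is read from them.

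In an alternative chosen after seeing the data, only the spots' own outlier marks were used and those of the background were not. Then 5269, 4710, 6353, 4474, 927 and 335 genes passed, or 23.1%, 20.7%, 27.9%, 19.7%, 4.07% and 1.47% of all tested. Of 10 members, 4 passed at 2 Gy, 1 at Si306 + 2 Gy, 1 at Si306 + 10 Gy, 3 in the dose difference of PT alone and 0 in that with Si306. In this setting normexp fitted a much larger SD to the background noise of most scans. For U87 10 Gy replicate 4 it was 888 in Cy3 and 1162 in Cy5, against 0.808 and 0.805 in the main setting. For U87 10 Gy replicate 1 it was 1.73 and 1.28, against 1.06 and 1.30. The part of this in the lost calls was not tested.

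With 1 array left out, where the remaining array is assumed to vary like the other groups, 10728 to 12931 genes and 5 to 8 members passed at 2 Gy, 9869 to 13554 and 9 to 10 at 10 Gy, 12081 to 15622 and 4 to 8 at Si306 + 2 Gy, 10678 to 14655 and 4 to 6 at Si306 + 10 Gy, 2629 to 4541 and 6 to 9 in the dose difference of PT alone, and 2510 to 5760 and 0 to 2 in that with Si306. Signal over background limits ZMAT3 on slide 2 and the dimmer probes of POLH and SESN1.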
